A study of Mus musculus with 8 samples.

Results

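The 10 genes followed here encode junction proteins of the intercalated disc, the structure that joins neighbouring heart muscle cells end to end. They were taken by symbol from a count table of 48440 entries and comprise 3 connexins (Gja1, Gja5 and Gjc1), 5 desmosomal genes (Dsp, Pkp2, Jup, Dsg2 and Dsc2) and 2 genes of the adherens junction (Cdh2 and Ctnna3). All RNA was from purified cardiomyocytes, taken at postnatal day 2 from mice of the C57BL6/J strain. Males (n = 4) and females (n = 4) were compared, with 1 heart of each sex from each of litters 1 to 4, so that a litter is represented by 2 libraries. The labels name neither a treatment nor a genetic change in any animal, and how the cells were purified is not given in the sources used here.

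Connexins form the channels of gap junctions, through which the action potential passes from cell to cell. Gja1 is the main connexin of the working ventricle, Gja5 is read in atrial muscle, the ventricular conduction system and arterial endothelium, and Gjc1 is the early connexin of the embryonic heart and of nodal tissue. Desmosomes tie the desmin filaments of neighbours together. In them the cadherins Dsg2 and Dsc2 reach across the gap, Jup and Pkp2 bind their tails inside the cell, and Dsp links that plaque to the filaments. Adherens junctions carry the force of the myofibrils through the cadherin Cdh2 and the catenins, among which Ctnna3 is the alpha-catenin restricted largely to heart and testis. Around birth these proteins still lie over much of the cell surface, and they gather at the cell ends as the heart matures.

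Library totals ran from 14226342 to 24910243 counts, and 13771 genes had enough counts to be tested, all 10 junction genes among them. The smallest count of any of the 10 was 256, for Gja5 in the female of litter 1, and the largest was 34508, for Dsp in the male of litter 3. Levels are given as CPM, counts divided by the library total in units of 1e+06, with that total corrected for composition by TMM. The 9 cardiomyocyte markers, among them Tnnt2 and Myh6, summed to between 62493 and 82826 CPM per library, with both lowest sums in litter 3. By litter means, Myh6 was lowest and Tnnt2 highest in litter 3. Endothelial markers summed to 20.6 to 180.1 CPM (12 genes), fibroblast markers to 32.4 to 243.2 CPM (8 genes), mural markers to 905.2 to 1534 CPM (9 genes, of which Acta2 and Abcc9 averaged 750.8 and 459.7 CPM and the rest at most 64.9 CPM) and epicardial markers to 3.56 to 8.07 CPM (8 genes), and no gene of these 4 lists was at 0 in all libraries. In bulk RNA of this kind, fewer cells of a type and less RNA per cell cannot be told apart. Nothing in the labels says whether litters were prepared on separate days, so litter and preparation cannot be told apart either.

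Promoter sequences are shown for 3 of the genes that differed between litters: Gja1, low in litter 3, and Gja5 and Jup, both low in litter 1. The choice does not rank them above the others. Only Dsc2 and Ctnna3 kept the call of the litter test in every fit without 1 library or 1 litter. Each stretch is the 250 bases before the RefSeq start site on GRCm38.p6, read 5′ to 3′ on the strand of the gene: chr10:56377050-56377299 on the plus strand for Gja1, chr3:97032152-97032401 on the plus strand for Gja5 and chr11:100397791-100398040 on the minus strand for Jup. Capitals mark matches to motifs searched on both strands.
Gja1: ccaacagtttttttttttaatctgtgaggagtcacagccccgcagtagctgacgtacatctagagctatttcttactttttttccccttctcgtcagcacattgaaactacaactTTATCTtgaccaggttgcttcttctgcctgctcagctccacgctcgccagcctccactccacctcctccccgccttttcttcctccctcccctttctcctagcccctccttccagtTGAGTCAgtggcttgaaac
Gja5: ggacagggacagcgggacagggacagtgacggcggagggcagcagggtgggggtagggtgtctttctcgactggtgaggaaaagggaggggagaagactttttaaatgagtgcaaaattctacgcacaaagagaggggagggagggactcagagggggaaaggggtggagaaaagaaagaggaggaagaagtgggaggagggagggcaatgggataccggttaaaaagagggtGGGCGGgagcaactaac
Jup: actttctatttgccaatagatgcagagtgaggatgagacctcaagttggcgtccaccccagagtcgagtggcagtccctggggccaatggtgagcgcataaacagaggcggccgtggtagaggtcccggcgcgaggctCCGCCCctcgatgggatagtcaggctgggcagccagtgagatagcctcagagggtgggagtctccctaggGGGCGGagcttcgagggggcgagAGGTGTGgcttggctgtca
No matches overlapped in these windows, and none held the Nkx2-5 motif, searched as CAAGTG, or a TATA box, searched as TATAAA. Gja1 held an AP-1 match, searched as TGANTCA, at -19 to -13 from the start site, a motif present in 6.75% of all 32851 promoter windows of this length, and a GATA match, which is AGATAA on the other strand, at -135 to -130, present in 9.99%. Gja5 held a single GC box, searched as GGGCGG, at -17 to -12, a motif of 32.7% of windows. Jup held GC boxes at -112 to -107 and -42 to -37 and a T-box match, searched as AGGTGTG, at -19 to -13, a motif of 5.11% of windows. RefSeq promoter entries were matched for 5 of the 10 genes, these 3 with Dsp and Ctnna3. In its window, Dsp had 4 GC boxes and 1 T-box match. These are letter matches, with no binding measured.

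Gene models were taken from GENCODE M21 on GRCm38, the assembly that mm10 in the submitters' processing notes stands for. Gja1 lies on chromosome 10 (56377330 to 56402513, plus strand), Gja5 on chromosome 3 (96904693 to 97077416, plus) and Gjc1 on chromosome 11 (102799579 to 102819700, minus). Dsp is on chromosome 13 (38151294 to 38198577, plus), Pkp2 on chromosome 16 (16213318 to 16272712, plus) and Jup on chromosome 11 (100368958 to 100397763, minus). Dsg2 (20558074 to 20604521, plus), Dsc2 (20030633 to 20059554, minus) and Cdh2 (16588877 to 16809246, minus) share chromosome 18, while Ctnna3 spans 63430098 to 65003667 on the plus strand of chromosome 10. No 100-base window of the principal transcript was shared with another gene for 8 of the 10. The exceptions were Dsp, with 4.21% of windows in Gm10129, and Dsg2, with 4.11% in Gm16090. Both lie on the opposite strand and had at most 22 and 7 counts in any library, against at least 19961 for Dsp and 2417 for Dsg2. Gja5 shared 165 exon bases with Gpr89 on the opposite strand, outside the principal transcript, and Gpr89 had 295 to 552 counts. Whether counting used the strand is not given in the sources used here, so this part of the Gja5 count is uncertain.

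Compared per length, Gja1 and Dsp were the most abundant of the 10 genes and Gja5 the least. Over the union of annotated exons, Dsp stood first at 134.9 ± 12.4 CPM per kb (SD, n = 8), followed by Gja1 at 86.6 ± 11.4, Cdh2 at 60.5 ± 2.92, Pkp2 at 58.6 ± 4.34 and Jup at 40.4 ± 5.78. Below them came Dsg2 at 19.4 ± 1.89 CPM per kb, Dsc2 at 12.7 ± 1.95, Gjc1 at 11.7 ± 0.893, Ctnna3 at 8.45 ± 1.32 and Gja5 at 3.52 ± 1.15. The range from Dsp to Gja5 covered positions from above 98.1% of tested genes to above 46.3% of them, counting genes with an annotated length. Neighbours in this order kept it in all 8 libraries with 2 exceptions: Cdh2 exceeded Pkp2 in 5 of 8 libraries, and Dsc2 exceeded Gjc1 in 6 of 8.

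The order at the top depends on the length used. Annotated Gja1 exons together cover 10.3 kb, while its principal transcript has 3.18 kb. On the principal transcript, a length chosen after the data were seen, Gja1 stood first at 279.1 ± 36.6 CPM per kb and Dsp followed at 135.8 ± 12.5 (SD, n = 8), with the 8 libraries of the 2 genes not overlapping. Gja5 remained last at 6.51 ± 2.13 CPM per kb, and 2 neighbouring pairs did not keep their order in all libraries, Pkp2 above Cdh2 (7 of 8) and Dsg2 above Gjc1 (6 of 8). Within the 3 connexins, Gja1 made up 81.6 to 88.5% of the summed level per length over the union of exons, Gjc1 9.36 to 13.4% and Gja5 1.70 to 5.06%. On principal transcripts the share of Gja1 was 87.3 to 92.1%.

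**Figure D1:**
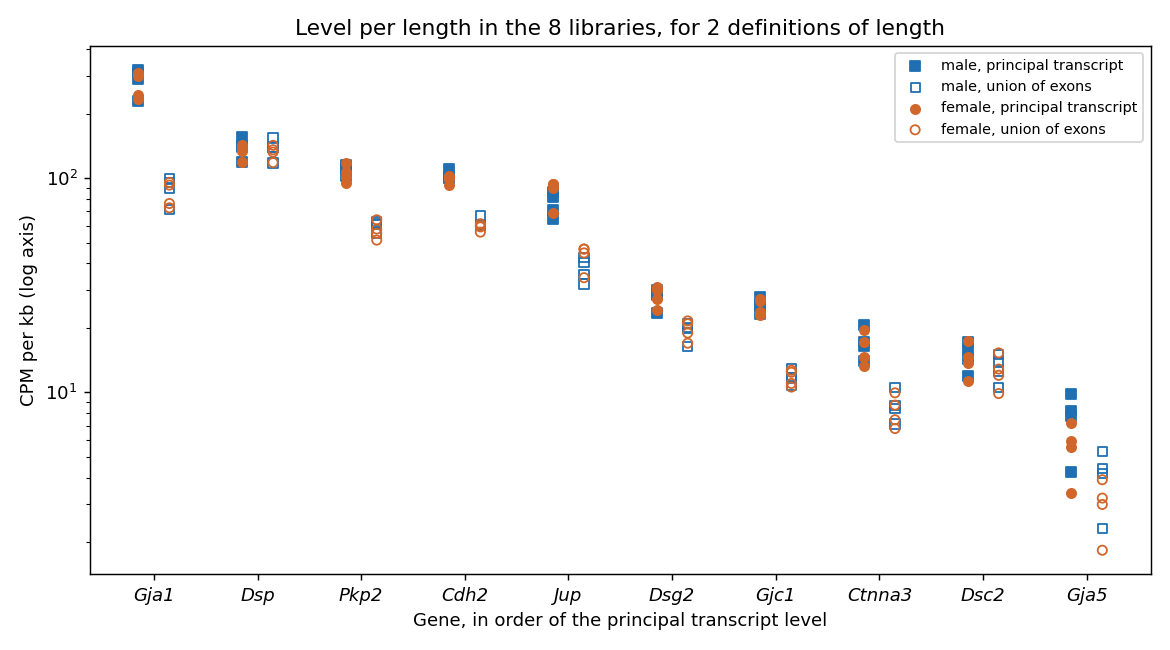
Level of each junction gene in CPM per kb on a log axis, 1 point per library, with blue squares for males and orange circles for females; filled points use the principal transcript and open points the union of exons. Gja1 lies above Dsp with the first length and below it with the second, and Gja5 is lowest with both.

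Litter set 7 of the 10 genes apart, where 32.1% of all 13771 genes tested passed the same threshold. The test took the 3 litter coefficients together in edgeR's quasi-likelihood model with sex, and counted an adjusted p-value under 0.05. Gja1, Gja5, Dsp, Jup, Dsg2, Dsc2 and Ctnna3 changed between litters, whereas Gjc1, Pkp2 and Cdh2 did not pass. The log2 range over litters, which is the highest minus the lowest litter coefficient, had a median of 0.37 over the 10 genes and of 0.37 over all genes tested. A further contrast set every litter against the average of the remaining 3, so these 4 contrasts share libraries. How often both libraries of a litter lay beyond the other 6 was counted over all genes for litter 3 only. There it was 15.1% of genes above and 16.4% below. For the other litters such separation is described below without that share and without a test.

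**Figure D2:**
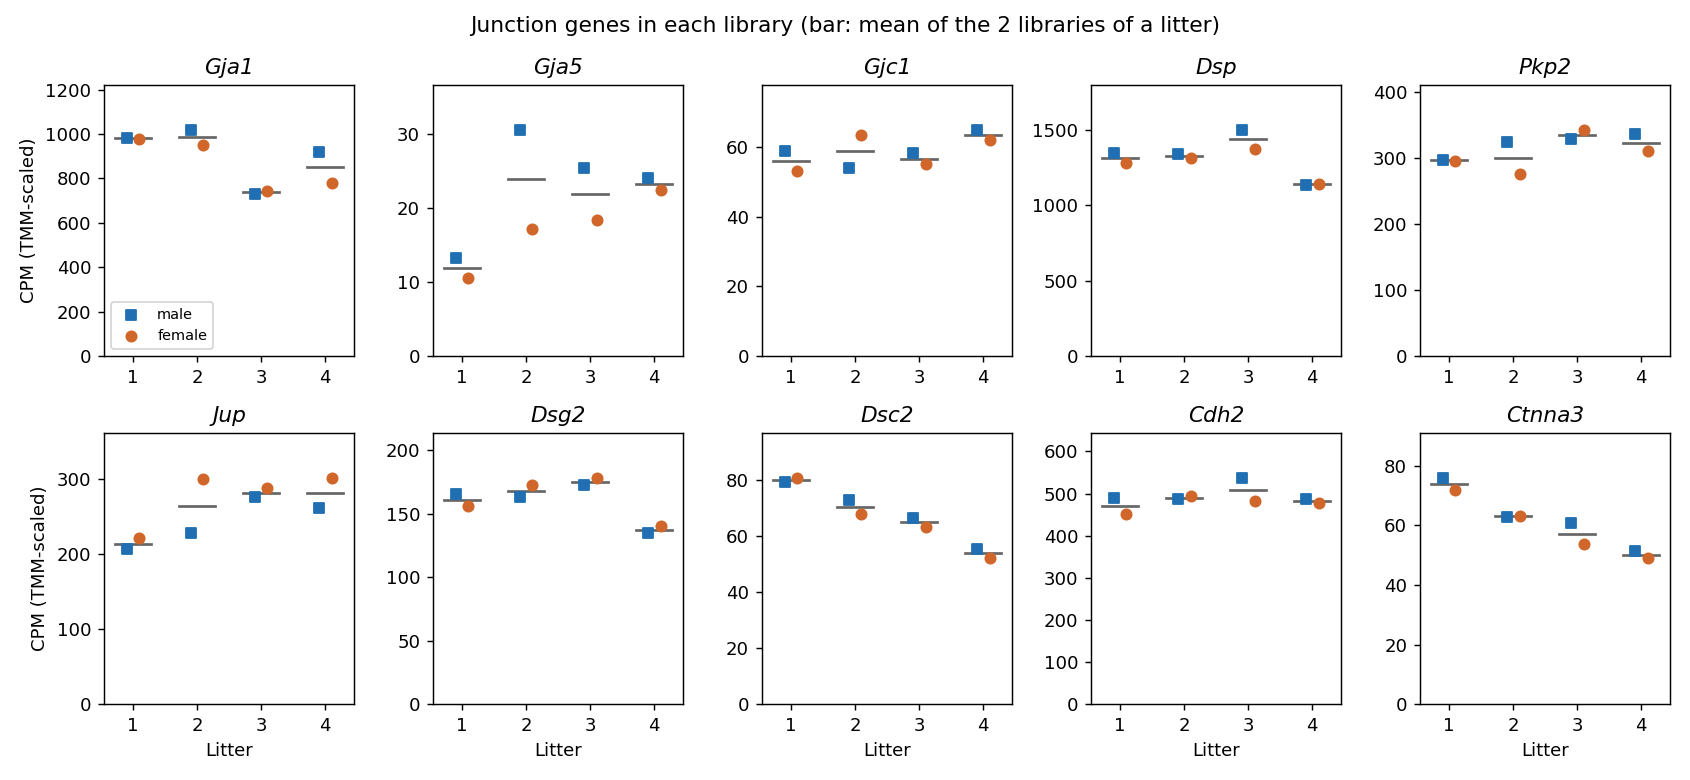
CPM of each junction gene by litter, with blue squares for males, orange circles for females and a bar at the mean of the 2 libraries; every axis starts at 0. Gja1 is lowest in litter 3, Gja5 and Jup in litter 1, and Dsp, Dsg2, Dsc2 and Ctnna3 in litter 4.

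Among the connexins, Gja1 had 980.2 CPM in the male and 979.9 CPM in the female of litter 1, 1018 and 951.7 in litter 2, 731.5 and 745.3 in litter 3, and 919.4 and 780.6 in litter 4. Both libraries of litter 3 thus lay below the other 6, as they did for 16.4% of all genes tested, although the female of litter 4 came close. Gja1 fell by 0.34 on the log2 scale in litter 3 (SE 0.06, edgeR adjusted p = 0.00238), where 14.8% of genes were lower. In litter 1 it was higher by 0.20 (SE 0.06, adjusted p = 0.0489), a call near the threshold that 6 of the 8 fits without 1 library lost (0.0590 to 0.510). Those fits lacked one of the libraries of litter 1 or 2, the litter 3 male, or the litter 4 female. Thinning every library to the smallest total, added after the data were seen, lost it too (0.0650). Without the male of litter 3 the fall in that litter had an adjusted p-value of 0.0554, and without litter 3 as a whole the litter test for Gja1 gave 0.102.

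Gja5 varied most of the 10, with a log2 range of 0.99 over litters (edgeR adjusted p = 0.00138). Male and female had 13.2 and 10.5 CPM in litter 1, 30.5 and 17.2 in litter 2, 25.4 and 18.4 in litter 3, and 24.0 and 22.5 in litter 4. Litter 1 was below all other libraries in both sexes, and its log2 fold change against the other litters was -0.95 (SE 0.13, adjusted p = 0.000635), where 5.41% of genes were lower. That call held in all 8 fits without 1 library, with log2 fold changes from -1.03 to -0.85, while without litter 1 the litter test for Gja5 gave an adjusted p-value of 0.784. For every 100 counts of Gja1 there were 1.35 and 1.07 counts of Gja5 in the male and the female of litter 1, and between 1.81 and 3.47 in the other 6 libraries.

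Atrial markers moved with Gja5 in part. The 11 of the list, none at 0 in all libraries, summed to 438.0 and 350.9 CPM in the male and female of litter 1, 931.7 and 265.6 in litter 2, 1402 and 1695 in litter 3, and 487.1 and 463.0 in litter 4. More of each sum came from Nppa, the atrial natriuretic peptide gene, than from the other 10 together, and Nppa reached 1176 and 1511 CPM in litter 3. Left without Nppa, a step chosen after its values were seen, the other 10 markers summed to 159.1 and 118.5 CPM in litter 1, 456.9 and 87.5 in litter 2, 226.1 and 184.1 in litter 3, and 214.6 and 166.1 in litter 4. The male of litter 2, highest for Gja5, was also highest here, and the female of litter 2 was lowest here but not for Gja5. The 8 arterial endothelial markers summed to 15.7 and 19.5 CPM in litter 1 and to 13.3 to 33.1 CPM over all libraries. Of 15 listed genes of the conduction system and connexin regulation, 14 were tested. In litter 1 edgeR called 5 of them lower (5.41% of all genes) and 0 higher (7.86%). The part of atrial, conduction or arterial cells in the Gja5 result was not tested.

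Gjc1 stayed within a narrow band, from 52.9 CPM in the female of litter 1 to 64.8 CPM in the male of litter 4, and its litters overlapped. Its log2 range over litters was 0.18 and did not pass (edgeR adjusted p = 0.370). Other connexins and pannexins were scarce: of 20 genes in that list, 8 had no count in any library, 5 could be tested and 0 passed the litter test. The 3 with the smallest p-values were Panx2, at 4.05 ± 0.999 CPM over the libraries, Gja3, at 22.6 ± 2.24 CPM, and Gjd3, at 0.833 ± 0.297 CPM (SD, n = 8), with adjusted p-values of 0.135, 0.190 and 0.284. Gja3 is best known from the lens. Gja4, the connexin of arterial endothelium, was at 0.415 ± 0.330 CPM.

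In the desmosome, the plaque linker Dsp and the cadherin Dsg2 shared a pattern with litter 4 lowest. Dsp had 1349 and 1278 CPM in the male and female of litter 1, 1338 and 1310.2 in litter 2, 1497 and 1373 in litter 3, and 1135 and 1141 in litter 4. Dsg2 had 165.4 and 156.5 CPM in litter 1, 163.6 and 172.8 in litter 2, 172.6 and 178.1 in litter 3, and 135.0 and 140.3 in litter 4. For both genes the 2 libraries of litter 4 lay below all 6 others, but the share of all genes that did so was not counted. Dsp fell by 0.25 on the log2 scale in litter 4 (SE 0.06, edgeR adjusted p = 0.0170) and Dsg2 by 0.29 (SE 0.06, 0.0131), where 5.8% of genes were lower. In litter 3 Dsp was higher by 0.19 (SE 0.05, 0.0205) and Dsg2 by 0.18 (SE 0.06, 0.0369), where 13.6% of genes were higher.

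These changes are small and several rest on single libraries. In litter 4 the call for Dsp was lost without either library of litter 1 or the male of litter 4 (0.0565 to 0.123), and that for Dsg2 without either library of litter 4 (0.0665 and 0.0986). In litter 3 Dsp lost it without either library of litter 1 or 3 (0.0601 to 0.229), and Dsg2 without the female of litter 1, the male of litter 2, either library of litter 3 or the male of litter 4 (0.0536 to 0.245). The litter test gave 0.0158 for Dsp, which was lost in 6 of 12 fits. These lacked the male (0.0526) or female (0.0505) of litter 1, a male from litter 3 (0.0555) or 4 (0.0623), or the whole of litter 3 (0.0804) or 4 (0.171). For Dsg2 it gave 0.0130, lost without the litter 4 male (0.0689) or all of litter 4 (0.345).

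Dsc2, the partner cadherin of Dsg2, set the litters apart more widely. It had 79.4 and 80.6 CPM in the male and female of litter 1, 72.7 and 67.8 in litter 2, 66.4 and 63.4 in litter 3, and 55.5 and 52.1 in litter 4 (litter test, edgeR adjusted p = 0.00120). No library of 1 litter overlapped with another litter, and litter 1 was highest and litter 4 lowest. It rose by 0.36 on the log2 scale in litter 1 (SE 0.06, adjusted p = 0.00276), where 7.86% of genes were higher, and fell by 0.41 in litter 4 (SE 0.06, 0.00408). The litter test passed in all 12 fits without 1 library or 1 litter (0.000606 to 0.0281), while the rise in litter 1 was lost without the female of that litter (0.128). Per length, Dsg2 exceeded Dsc2 by 1.24 to 1.33 times in litter 1 and by 1.44 to 1.79 times in the other 6 libraries, over the union of exons.

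Jup, the plakoglobin gene, went the other way in litter 1. Male and female had 206.4 and 220.7 CPM there, 228.0 and 299.8 in litter 2, 275.2 and 288.0 in litter 3, and 260.9 and 300.6 in litter 4. Both libraries of litter 1 were below the other 6, and the male of litter 2 was the closest above them. Jup fell by 0.36 on the log2 scale in litter 1 (SE 0.07, edgeR adjusted p = 0.00585), a call lost without the male (0.0581) or the female (0.179) of that litter, and the litter test (0.0106) was lost without the female of litter 1 (0.150) or all of litter 1 (0.590). Pkp2, the plakophilin that shares its place in the plaque, ran from 275.4 CPM in the female of litter 2 to 342.4 CPM in the female of litter 3. Its litters overlapped and the litter test did not pass (log2 range 0.18, adjusted p = 0.204).

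In the adherens junction, the cadherin Cdh2 was the steadiest of the 10 genes, with a coefficient of variation of 4.82% over the 8 libraries, against 32.7% for Gja5. It ran from 451.4 CPM in the female of litter 1 to 536.5 CPM in the male of litter 3, and the litter test did not pass (log2 range 0.11, edgeR adjusted p = 0.541). Ctnna3, which binds beta-catenin and plakoglobin and joins Pkp2 in the mixed junctions of the disc, did change. Male and female had 75.8 and 71.9 CPM in litter 1, 63.0 and 63.0 in litter 2, 60.7 and 53.8 in litter 3, and 51.4 and 49.0 in litter 4. Both libraries of litter 1 were above and both of litter 4 below all others.

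The rise of Ctnna3 in litter 1 was 0.38 on the log2 scale (SE 0.06, edgeR adjusted p = 0.00215) and its fall in litter 4 was -0.36 (SE 0.07, 0.00785). The litter test gave 0.00160 and passed in all 12 fits without 1 library or 1 litter (0.000703 to 0.0465). Single litters were less secure: the rise was lost without the male (0.0663) or female (0.0613) of litter 1, and the fall without the male (0.0668) or female (0.0604) of litter 4. Ctnna3 and Dsc2 had the highest correlation of log2 CPM of the 45 pairs among the 10 genes (Pearson's r = 0.97), followed by Dsp and Dsg2 (r = 0.90), and the lowest was that of Jup and Ctnna3 (r = -0.77). These describe 8 libraries that share litters and scaling, and are given without a test.

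**Figure D3:**
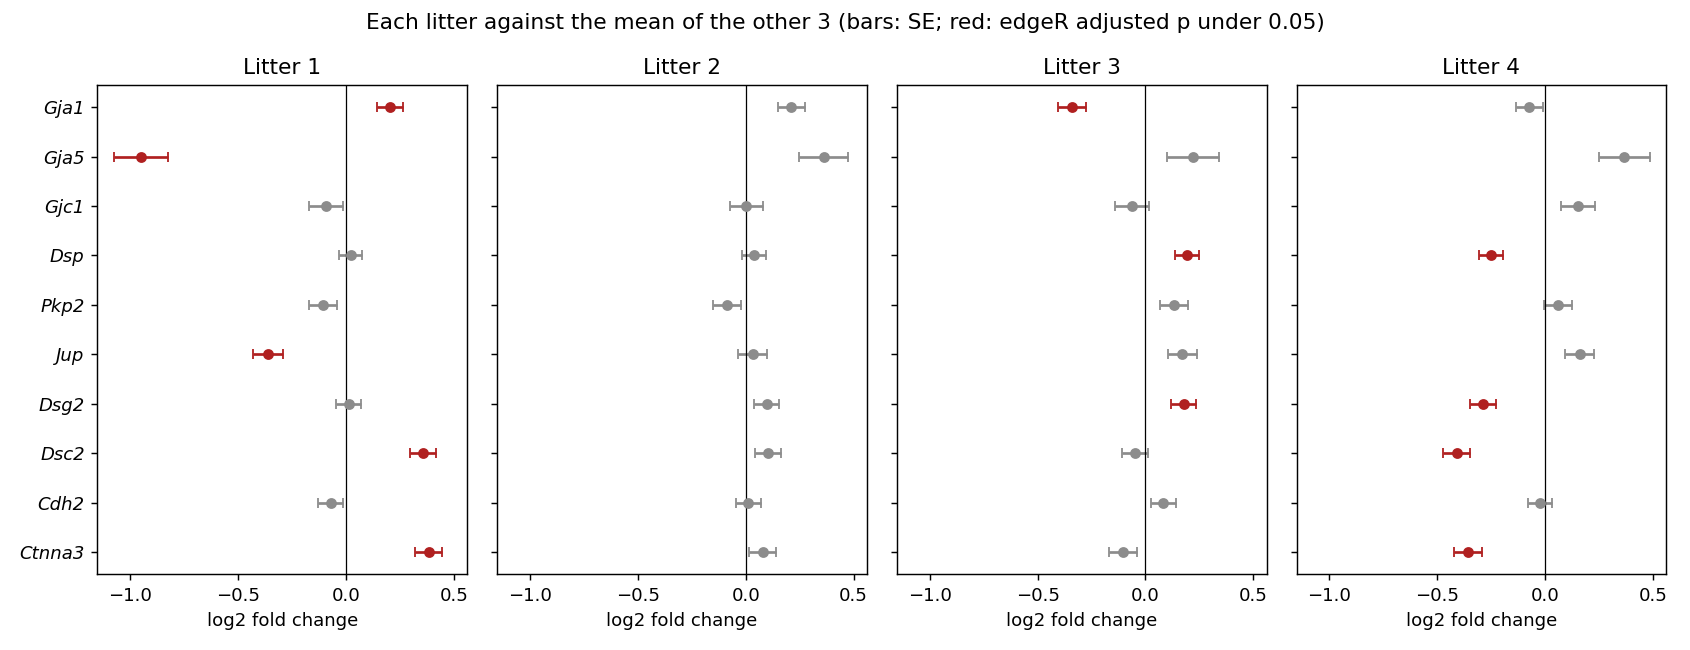
Log2 fold change of each junction gene in each litter against the mean of the other 3, with bars for the SE, and red for an edgeR adjusted p-value under 0.05. Litter 1 has 3 genes higher and 2 lower, litter 2 has 0 called, litter 3 has 2 higher and 1 lower, and litter 4 has 4 lower.

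Counted over the 10 genes, litter 1 had 3 higher (Gja1, Dsc2 and Ctnna3; 7.86% of all genes) and 2 lower (Gja5 and Jup; 5.41%), with a median log2 fold change of -0.03. Litter 2 had 0 in either direction in edgeR, where 3.3% of all genes were higher and 0.879% lower. In that edgeR fit 2 had an unadjusted p-value under 0.05 (17.9% of all genes), and DESeq2 called 0 of the 10 in litter 2. Without the filter on low counts, an alternative added after the data were seen, edgeR called 2 there, Gja1 at 0.21 (adjusted p = 0.00713) and Gja5 at 0.36 (0.00418). With the filter the log2 fold changes were also 0.21 (0.0839) and 0.36 (0.115), so only the p-values moved. Litter 3 had 2 higher (13.6%) and 1 lower (14.8%) with a median of 0.11. Litter 4 had 0 higher in edgeR and 4 lower with a median of -0.05, where 4.71% of all genes were higher and 5.8% lower, and 6 of the 10 had an unadjusted p-value under 0.05 in either direction (27.6% of all genes). Without that filter Gja5 was called higher in litter 4, by 0.36 (edgeR adjusted p = 0.00330), where the fit with the filter gave 0.37 (0.0636). Medians over all genes tested lay between -0.0016 and 0.013 in these comparisons. Litter 3 also had the lowest summed cardiomyocyte markers, at 64220 and 62493 CPM. Of those 9 markers, edgeR called 4 lower there (14.8% of all genes) and 0 higher (13.6%). Myh6 averaged 16510 CPM in litter 3 against 24733 to 26452 CPM in the other litters, and Actc1 8512 against 12786 to 14172.5 CPM. Tnnt2 and Pln had their highest litter means there, at 13041 and 6443 CPM, so the sum does not stand for every marker. The 4 ventricular markers summed to 14005 and 14723 CPM in litter 3, against 16761 to 20282 CPM in the other litters. They were split: edgeR called Myl2 and Myl3 lower in litter 3 (14.8% of all genes) and Irx4 and Hey2 higher (13.6%). That litter also had the lowest mural sums, at 929.3 and 905.2 CPM, in which Acta2 had 369.1 and 343.4 CPM against 804.5 to 1037 CPM in the other 6 libraries. Its fibroblast sums were low, at 51.8 and 32.4 CPM. Litter 4 had cardiomyocyte sums of 71187 and 82826 CPM, below and above those of litters 1 and 2, and fibroblast sums of 227.3 and 107.7 CPM. The part of these markers in the junction results was not tested.

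Between the sexes none of the 10 genes passed. The comparison asked whether junction transcripts differ between male and female hearts, and edgeR's quasi-likelihood test called 0 of 10, where 0.0436% of all genes passed, with 0 at an unadjusted p-value under 0.05, where 2.22% of all genes lay. DESeq2 called 0 as well, also with 0 unadjusted. Log2 fold changes, male minus female, ran from -0.19 for Jup to 0.44 for Gja5, with a median of 0.07 against -0.0008 over all genes. The other 8 lay between -0.02 and 0.08.

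Gja5 and Jup were the 2 genes with the same direction in all 4 litters. The share of all genes with the same direction in all 4 was not counted, so this is a description only. Gja5 averaged 23.3 ± 7.26 CPM over the males against 17.2 ± 4.96 CPM over the females (SD, n = 4), was higher in the male of 4 of 4 litters, and differed by 0.44 on the log2 scale (SE 0.27, edgeR adjusted p = 1.00). Jup averaged 242.6 ± 31.2 CPM over the males against 277.3 ± 38.1 CPM over the females, was higher in the female of 4 of 4 litters, and differed by -0.19 (SE 0.12, edgeR adjusted p = 1.00). Values of the sexes overlapped for both. With litter as a block, which compares siblings, the log2 fold changes were 0.43 (SE 0.10, unadjusted p = 0.00125, edgeR adjusted p = 0.188) and -0.19 (SE 0.06, unadjusted p = 0.00739, adjusted p = 0.295). Neither passed, and these were the 2 of 10 genes with an unadjusted p-value under 0.05 in that fit, where 11.6% of all genes lay under that value and 0.211% passed after adjustment.

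Markers of other cells also differed between siblings, for some lists in the same direction in every litter. Of the 11 atrial markers, 8, 11, 8 and 10 were higher in the male in litters 1 to 4, and their sums ran from 438.0 to 1402 CPM in males and from 265.6 to 1695 CPM in females. Without Nppa, the atrial sum was higher in the male of every litter, as Gja5 was. With Nppa it was lower in the male of litter 3. The gap in Gja5 was widest in litter 2, where the male had 30.5 CPM against 17.2 CPM and 456.9 CPM of the atrial markers other than Nppa against 87.5 CPM. Of the 12 endothelial markers, 0, 0, 5 and 10 were higher in the male, with sums from 20.6 to 103.1 CPM in males and from 22.9 to 180.1 CPM in females. Of the 8 fibroblast markers, 8, 8, 6 and 7 were higher in the male, and their sums in male and female were 166.2 and 110.8 CPM in litter 1, 243.2 and 152.6 in litter 2, 51.8 and 32.4 in litter 3, and 227.3 and 107.7 in litter 4. Male sums were thus higher in 4 of 4 litters, as for Gja5, and 5 of these 8 markers passed in the fit with litter as a block, for example Dcn (log2 fold change 1.14, edgeR adjusted p = 0.000315). Plakoglobin is also a junction protein of endothelium. Its widest gap was in litter 2, with 299.8 CPM of Jup in the female and 228.0 CPM in the male, beside endothelial sums of 180.1 and 103.1 CPM. Endothelial sums were also higher in the female in litter 1 (74.2 against 20.6 CPM) and litter 3 (22.9 against 21.6 CPM), as Jup was, and lower in litter 4 (30.8 against 40.6 CPM), where Jup was higher in the female. Of 15 listed genes of the conduction system and connexin regulation, 11, 9, 10 and 9 were higher in the male in litters 1 to 4. With litter as a block, 0 of them passed. The part of atrial cells, conduction cells, fibroblasts and endothelial cells in the Gja5 and Jup values was not tested.

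**Figure D4:**
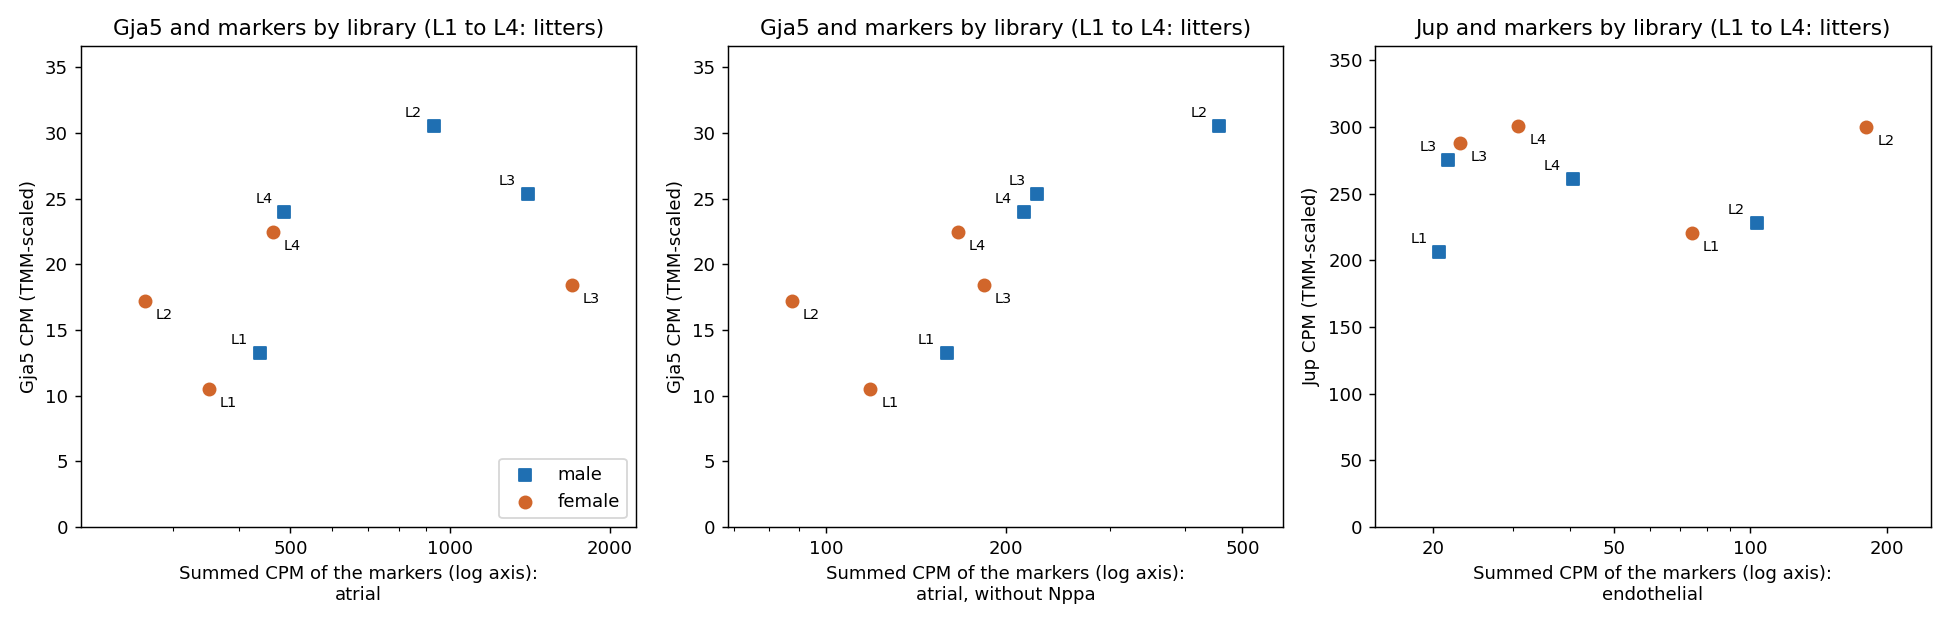
CPM of Gja5 against the summed CPM of the atrial markers, with and without Nppa, and of Jup against that of the endothelial markers, 1 point per library (squares male, circles female) with marker sums on a log axis. The male of litter 2 is highest for Gja5 and for the atrial markers without Nppa, and Jup is near 300.6 CPM in the females of litters 2 and 4, whose endothelial sums were 180.1 and 30.8 CPM.

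Other genes of the same junctions were taken from lists set up by name. In the desmosome list, 4 of 14 genes could be tested and 2 passed the litter test, which 32.1% of all genes passed: Pkp4, a plakophilin relative, whose CPM in litters 1 to 4 was 223.4 ± 7.41, 201.1 ± 1.05, 163.7 ± 4.75 and 174.2 ± 17.5 (SD, n = 2; edgeR adjusted p = 0.00254), and Perp, whose mean was 291.2 CPM in litter 3 against 318.8 to 366.9 CPM elsewhere (0.0318). Desmin, the filament gene Des, did not pass (1355 ± 89.5 CPM, SD, n = 8; 0.0691). Dsg3, Dsc1, Dsc3 and Pkp3, desmosomal genes of skin, had 0 counts in all libraries. A count of 0 says only that none was seen at these totals.

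Of 16 adherens junction partners, 14 were tested and 6 passed the litter test, beside 32.1% of all genes. Xirp2, an actin-binding protein of the disc, had the smallest p-value, and its CPM in litters 1 to 4 was 49.1 ± 6.66, 36.5 ± 5.13, 17.8 ± 3.37 and 30.7 ± 3.47 (SD, n = 2; edgeR adjusted p = 7.15e-06). Ctnna1, the widely used alpha-catenin, had 651.8 ± 1.48 CPM in litter 3 against 849.8 to 879.0 CPM elsewhere (0.00281). Nrap, which anchors myofibrils at the disc, had 392.6 ± 17.8 CPM in litter 3 against 482.2 to 520.7 CPM elsewhere (0.0123). All 3 were lowest in litter 3, as Gja1 was, while Ctnna3 was lowest in litter 4. In the list of cadherins set up by name for other cells, 3 of 4 tested genes of 8 passed (32.1% of all genes). Which cells carried their RNA here was not tested. They were Cdh5 of endothelium, with 31.7 ± 15.9 CPM in litter 2 against 4.26 to 9.47 CPM elsewhere (0.000254), Cdh11 of mesenchyme, with 14.0 ± 0.263 CPM in litter 2 against 3.06 to 7.23 CPM elsewhere (8.80e-05), and Cdh13, with 129.5 to 179.9 CPM (0.00707).

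Of 14 disc scaffold and channel genes, all were tested and 4 passed, beside 32.1% of all genes. Tmem65, needed for the placing of connexin at the disc, had 127.1 ± 5.70 CPM in litter 3 against 156.1 to 185.5 CPM elsewhere (SD, n = 2; edgeR adjusted p = 0.000805). Tjp1, the ZO-1 gene whose product binds the tail of the Gja1 protein, had 91.7 ± 4.93 CPM in litter 4, 101.8 ± 6.22 in litter 3 and 123.1 to 125.3 CPM in litters 1 and 2 (0.00343). Kcnj2, a potassium channel gene, had 45.1 ± 2.78 CPM in litter 3 against 56.9 to 62.6 CPM elsewhere (0.0115). Conduction and regulator genes passed for 9 of 14 tested, of 15 listed, beside 32.1% of all genes. The 3 with the smallest p-values were T-box factors: Tbx18, with 21.2 ± 0.236 CPM in litter 3 against 10.8 to 12.7 CPM elsewhere (0.000744), Tbx2, with 2.17 ± 0.221 CPM in litter 1 against 3.74 to 5.79 CPM elsewhere (0.00537), and Tbx5, with 40.4 ± 3.68 CPM in litter 1 against 44.9 to 54.5 CPM elsewhere (0.00893). None of the genes in these 6 lists passed in the comparison of sexes.

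The genes most like each changed junction gene were named by the highest Pearson correlation of log2 CPM over the 8 libraries, among 8557 other genes with a mean of at least 10 CPM. For Gja1 these were Inpp1 (r = 0.99) and Zfp950 (0.98), and for Gja5 Wsb2 (0.93) and Gpx3 (0.92). Dsp was closest to Atxn1l (0.99) and Adipor2 (0.98), Jup to Traf4 (0.98) and Gtpbp1 (0.97), and Dsg2 to Tnrc6b (0.99) and Zbtb37 (0.98). Dsc2 was closest to Zfc3h1 (0.99) and Larp4 (0.98), and Ctnna3 to Wdr35 (0.98) and Cdkn1a (0.97). With 8 libraries and this many candidates, correlations of this size describe the shared libraries and carry no test.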

How the data were processed

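RNA-seq counts of 8 cardiomyocyte libraries were analysed. Per the labels' protocols, libraries were made with a stranded kit for total RNA, although the molecule is listed as poly(A) RNA. The authors deposited 1 table of raw counts per gene symbol. STAR 2.7.3a and mm10 appear in the submitters' processing notes. The counting program, annotation and strand setting are not given in the sources used here. All 10 junction genes and every list were chosen with earlier results of these data known.

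Genes were filtered with filterByExpr and scaled with TMM in edgeR 4.0.16 (R 4.3.3, limma 3.58.1). Sex was tested with 6 and litter with 3 residual degrees of freedom, with Benjamini-Hochberg adjustment over all genes and a threshold of 0.05. Each SE was taken as the absolute log2 fold change over the root of its F statistic. Alternatives were DESeq2 1.42.0, library size alone, other count filters, thinning and leaving out libraries or litters. Scripts were tested on simulated counts. Replicate numbers are litters, per the labels: after removal of sex means, siblings correlated at 0.506, 0.503, 0.696 and 0.367 in litters 1 to 4. Named genes were the 10, the 3 of each list with the smallest litter p-value, and the 2 genes most like each changed one. Afdn was matched through its older symbol.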

Additional observations from a re-analysis of the deposited data

Results flagged for a closer look

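For every junction gene, the most extreme of the 4 males and of the 4 females was set against the others. Of 20 such groups, 2 had a library far from the other 3, where chance gives about 1. Jup in the female of litter 1 had 220.7 CPM, against 288.0 to 300.6 CPM in the other 3 females. Cdh2 in the male of litter 3 had 536.5 CPM, against 486.4 to 490.3 CPM in the other 3 males, while the female of that litter had 482.7 CPM. The low Jup value belongs to litter 1, whose male was also the lowest of the males at 206.4 CPM.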

How the results depend on the processing

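With 2 libraries per litter, changes of the size seen here rest on few animals. The litter test called the same 7 genes with DESeq2, library size alone, no count filter, a mean of at least 50 counts and thinning to the smallest total. In that order, these settings called 23.6%, 34.3%, 23%, 36.7% and 30.6% of all genes they tested. Among fits that left out 1 library or litter it called 5 to 7 of the 10, with 1898 to 4586 genes in all, the lowest without litter 3. DESeq2 kept every call of the 10 genes, for litter, single litters and sex. In single litters, no count filter and thinning were added after the data were seen. Without a count filter litter 2 had 1249 genes and 2 of the 10, Gja1 (adjusted p = 0.00713) and Gja5 (0.00418), and Jup in litter 3 (0.0417) and Gja5 in litter 4 (0.00330) passed as well. Log2 fold changes for these added calls stayed close to those with the filter, while the adjusted p-values fell. Thinning lost Gja1 in litter 1 (0.0650). With library size alone Gja1 passed in litter 2 (1 gene in place of 0, adjusted p = 0.0436) and Jup in litter 3 (0.0331), and Pkp2 in litter 4 turned to -0.0172 from 0.06. A mean of at least 50 counts gave 345 genes in litter 2, against 575.

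Sex called 29 genes with the litter block against 6 without, and 0 of the 10 in either fit; the block changed no call of the 10. Without 1 library, sex log2 fold changes ran from -0.0388 to 0.0456 for Gjc1, -0.0010 to 0.12 for Dsp, -0.0867 to 0.0417 for Dsg2, -0.0432 to 0.167 for Dsc2 and -0.0247 to 0.184 for Ctnna3, with signs that turned while none passed. Counts by litter without 1 library were 359 to 1869 genes and 1 to 5 of the 10 in litter 1, 153 to 752 and 0 to 1 in litter 2, 1704 to 3791 and 0 to 4 in litter 3, and 322 to 1302 and 1 to 5 in litter 4. Signs also turned for Dsg2 in litter 1 (-0.0577 to 0.0828), for Gjc1 (-0.16 to 0.16), Pkp2 (-0.201 to 0.0189), Jup (-0.11 to 0.16) and Cdh2 (-0.0471 to 0.0660) in litter 2, and for Gja1 (-0.184 to 0.0298) and Cdh2 (-0.0527 to 0.00358) in litter 4, none of them called in the full fit. Fits without a library of the litter in question leave it 1 library, assumed to vary like the others. Added calls without 1 library were Gja1 and Gja5 in litter 2, Gja5 and Jup in litter 3 and Gja5 in litter 4. The cause was not tested. Levels per length moved by more than their spread for 8 of 10 genes with the longest or the principal transcript, and for none with the library total.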
